A study of Mus musculus with 6 samples.

Results

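The histone and tRNA gene cluster of mouse chromosome 13 was described through the YAP1 ChIP-seq peaks that lie in it. Its members are all peaks on chromosome 13 of the mm9 build that overlap the interval from 21700000 to 23950000, chained into regions where peaks of the 4 lists overlapped by at least 1 bp. This gave 78 regions, of 25223 in the whole series and beside 1016 on the rest of chromosome 13. The interval was selected on the density of peaks in these same lists, so the number of peaks, their heights, their widths and their presence in several lists are given as a description and are not tested against the rest of the chromosome.

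The tumours are labelled fSMO-M2;hGFAPcre, abbreviated SG. This stands for SmoM2, an always-active form of the Hedgehog signalling protein Smoothened, switched on by Cre recombinase from the human GFAP promoter. The tissue is labelled MB, taken here as medulloblastoma, and all groups carry the same alleles, so no library without the transgene enters. There were 2 female libraries (SGf, female 1 and female 2) and 2 male libraries (SGm, male 1 and male 2), with replicate numbers from their titles. The 2 libraries of pooled input DNA were not used here. The labels give neither ages nor numbers of animals, nor say which animal each library came from, so the spread between libraries may be technical. A Sex tag goes against the title in male 1 and female 2. The lists give no read counts, so the depth is unknown, and they held between 4155 (male 1) and 16769 (female 2) peaks.

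YAP1 switches genes on when Hippo signalling is low. It has no DNA-binding domain of its own and is known to sit on chromatin with partners such as the TEAD factors. Replication-dependent histone genes make the H1, H2A, H2B, H3 and H4 proteins that package newly copied DNA. They are short, have no introns in most cases, often stand as head-to-head pairs, and are transcribed in S phase by RNA polymerase II. The tRNA genes between them are transcribed by RNA polymerase III.

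The peaks are on mm9 and the gene table is of GRCm38, a later build, so no peak was placed on a gene and the label could not be checked by position. In the gene order of RefSeq on GRCm38, the stretch from H2bc13 to H2ac1 holds 255 genes. Among them are 54 protein-coding histone genes (6 of H1, 13 of H2A, 15 of H2B, 9 of H3 and 11 of H4) and 77 tRNA genes. A run of 75 vomeronasal receptor genes and pseudogenes (Vmn1r), which encode pheromone receptors, parts them: 23 histone and 32 tRNA genes lie before it, 31 histone and 45 tRNA genes lie after it, and none of either lies within it.

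Promoter sequences of these histone genes are shown because they are the regulatory DNA of the locus. RefSeq promoters of GRCm38.p6 were found for 51 of the 54 genes (52 promoters), and the 250 bases before the start were searched on both strands. The letters CCAAT, the core of a box bound by NF-Y, were in 44 of 52 (84.6%), against 33.8% of all 32851 mouse promoters. TATAAA was in 26 of 52, against 12.4% of all. GGAATG, the core letters that TEAD factors are known to bind, was in 2 (3.85%), against 12.6% of all. These are matches of letters and not sites, the motifs searched can overlap each other, and the absence of a match says nothing about binding. Promoters of a head-to-head pair can share bases, so the same stretch may be counted for both genes. The promoters with GGAATG belong to H4c8 (a gene of the plus strand) and H4c3 (of the minus strand), which encode histone H4. The promoters of H2bc23 and H4bc24, both of H2B genes, were identical over the 250 bases and are printed once, since reads from such copies cannot be assigned to either one. Each line runs 5′ to 3′ on the gene's strand, and capitals mark the letters searched for, in either orientation.
H4c8: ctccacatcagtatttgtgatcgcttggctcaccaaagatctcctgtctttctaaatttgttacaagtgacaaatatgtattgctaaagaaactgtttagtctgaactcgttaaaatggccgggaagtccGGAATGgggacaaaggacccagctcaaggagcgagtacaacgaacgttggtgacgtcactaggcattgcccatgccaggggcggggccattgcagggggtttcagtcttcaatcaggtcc
H4c3: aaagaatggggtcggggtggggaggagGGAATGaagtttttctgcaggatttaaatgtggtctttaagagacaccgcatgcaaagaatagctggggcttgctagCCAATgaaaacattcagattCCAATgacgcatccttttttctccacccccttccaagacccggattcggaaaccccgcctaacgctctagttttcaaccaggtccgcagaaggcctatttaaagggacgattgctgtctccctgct
H2bc23 and H4bc24: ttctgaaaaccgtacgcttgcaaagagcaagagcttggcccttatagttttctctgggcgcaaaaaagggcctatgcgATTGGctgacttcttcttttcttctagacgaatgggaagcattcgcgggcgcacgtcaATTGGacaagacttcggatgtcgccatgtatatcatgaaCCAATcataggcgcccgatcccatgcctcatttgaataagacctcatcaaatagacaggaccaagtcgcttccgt

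Peaks of YAP1 lay towards both ends of the interval, short of its edges, and left its middle empty. Regions fell into 3 blocks when neighbours within 100 kb were joined. The first block ran from 21801786 to 21926009 and held 18 regions. The second ran from 22032136 to 22143335 and held 13 regions. The third ran from 23460858 to 23855948 and held 47 regions. Between the second and the third block, 1318 kb held no peak in any library. Over the whole 2.25 Mb interval the density was 34.7 regions per Mb, against 8.61 regions per Mb over the rest of chromosome 13. Within the blocks it was 145, 117 and 119 regions per Mb. Blocks end at their outermost regions and leave out the long empty stretches, so these 3 values are not comparable with 8.61. In bins of 50 kb, the fullest held 12 regions and 30 of 45 bins held none. Whether the empty stretch on mm9 is the Vmn1r run of the gene order was not tested, because coordinates were not carried between builds.

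**Figure D1:**
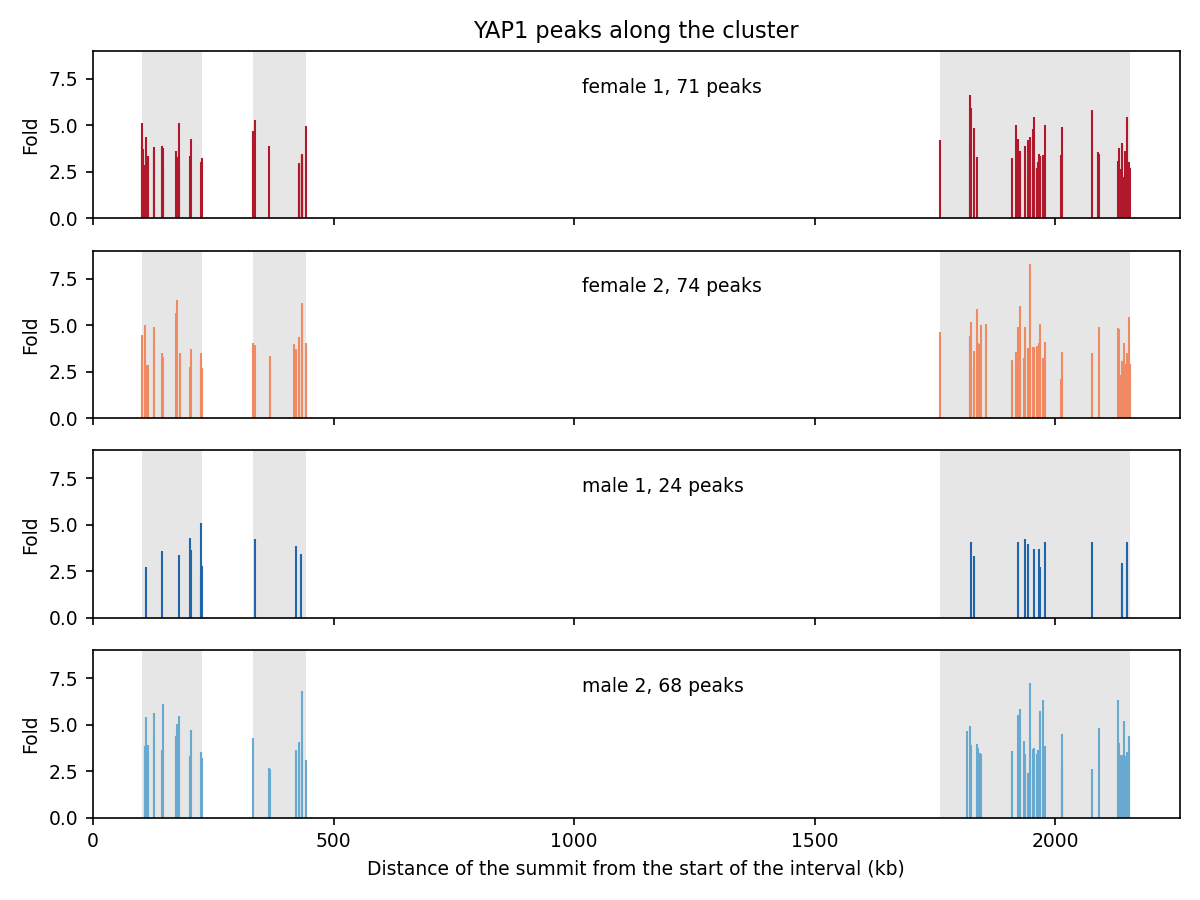
YAP1 peaks of the 4 libraries along the cluster. Each line is a peak, placed by the distance of its summit from the start of the interval (kb), and its height is the authors' fold enrichment; grey bands are the 3 blocks, and the 1318 kb between the second and the third band hold no peak in any library.

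The interval was bounded by stretches without peaks. The first member, from 21801786 to 21802211, was in both female lists, at 5.10-fold in female 1 and 4.47-fold in female 2. The last member, from 23855401 to 23855948, was also in both female lists alone, at 2.70-fold and 2.92-fold. The nearest region before the interval, from 21622691 to 21623224, lay 178561 bp before the first member and was in all 4 lists, at 4.53-fold in female 1, 5.61-fold in female 2, 4.44-fold in male 1 and 3.45-fold in male 2. The nearest after it, from 24209253 to 24209490, lay 353304 bp beyond the last member and was in female 2 alone, at 5.98-fold. Windows of the same 2.25 Mb were laid end to end outwards from the interval. Of 52 others on chromosome 13 that held any region, the fullest had 63 regions. Over chromosomes 1 to 19 and X, 33 of 1111 other windows had 78 regions or more, so the interval was the fullest window of chromosome 13 and not of the genome.

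Neighbouring regions were close. The median distance between neighbours was 3186 bp in the cluster and 39275 bp over the rest of chromosome 13. Gaps under 1 kb made up 31 of 77 in the cluster (40.3%) and 15.2% elsewhere on the chromosome. Some lists held peaks side by side that did not touch. From 23646824 to 23648140, 3 regions were parted by 39 and 31 bp: the outer ones were held by female 1, female 2 and male 2, and the middle one by female 1 alone.

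Most regions of the cluster recurred across libraries. Of the 78, 19 (24.4%, 95% exact Clopper-Pearson interval 15.3 to 35.4) were in all 4 lists, against a background of 8.76% (89 of 1016) over the rest of chromosome 13 and 7.89% over all regions of the series. A further 34 (43.6%) were in 3 lists, and 31 of these were in both female lists and male 2 but not in male 1, the shortest list. In 3 or more lists there were 53 regions (67.9%, 56.4 to 78.1), against 25.9% (23.2 to 28.7) over the rest of the chromosome. In 1 list alone there were 13 (16.7%), against 52.2% elsewhere, and none of the 13 was of male 1. The intervals treat regions as independent and cover counting error only. Peaks of the cluster were also wider and closer together, and the part of this in their recurrence was not tested. Whatever male 1 held, 50 of the 78 regions (64.1%) were in all 3 other lists, against 229 of 1016 (22.5%) elsewhere on the chromosome.

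**Figure D2:**
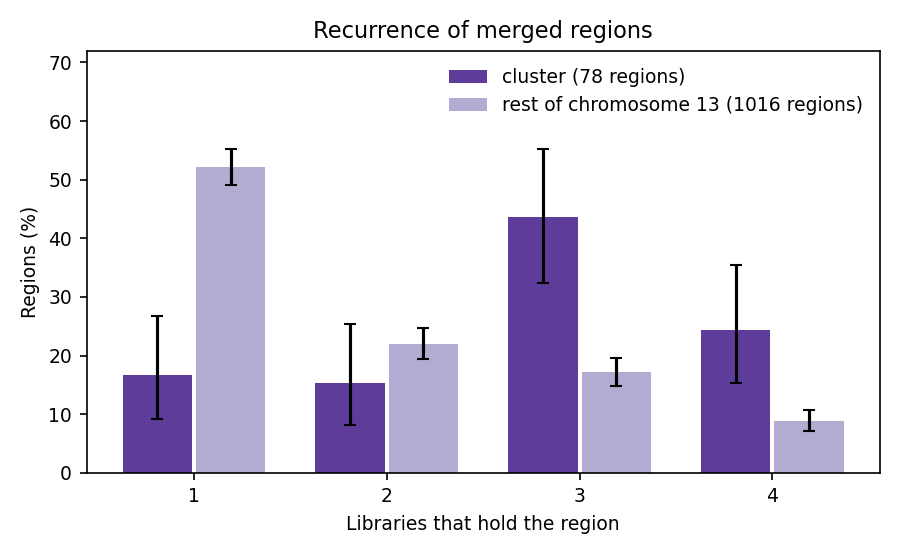
Merged regions (%) by the number of libraries that hold them, for the 78 regions of the cluster (dark bars) and the 1016 of the rest of chromosome 13 (light bars). Error bars are 95% exact intervals of counting error; 24.4% of the cluster's regions and 8.76% of the others were in all 4 libraries.

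The share in all 4 lists was not above that of the rest in every setting. It turned only at equal list length, on a small count. When each list was reduced to its 4155 strongest peaks by the authors' p-value, the cluster held 56 regions, of which 4 (7.14%) were in all 4 lists, against 9.39% over the rest of the chromosome. In 3 or more lists there were then 23.2% of the cluster's regions and 19.5% of the others. With only peaks at −log10 q of at least 5, 10 of 70 regions (14.3%) were in all 4 lists, against 5.02%, and 52.9% were in 3 or more, against 20.3%. Where peaks had to overlap by at least 50% of both to be joined, 11 of 121 (9.09%) were in all 4, against 4.52%.

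The 19 regions in all 4 lists were of moderate height. Fold enrichment, the authors' value for each peak over a background that is not described, ran from 3.02 to 5.91 (median 4.23) in female 1 and from 2.77 to 6.20 (median 3.71) in female 2. It ran from 2.35 to 5.09 (median 3.72) in male 1 and from 2.42 to 6.82 (median 3.63) in male 2. Each fold is relative to the background of its own list, so values of several libraries are set side by side as a description. The libraries overlapped in range, and which library was highest changed from region to region. The best-placed region, by its worst rank among the chromosome 13 peaks of the 4 lists, ran from 23622223 to 23623861. It had 4.24-fold in female 1, 4.91-fold in female 2, 4.07-fold in male 1 and 5.51-fold in male 2. The next, from 23524336 to 23525121, had 5.91-fold in female 1, 5.15-fold in female 2, 4.10-fold in male 1 and 3.93-fold in male 2, so both female values were above both male values. Such an order by sex was seen in 2 of the 19 regions.

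Of the 10 best-placed shared regions, 8 lay in the third block, which held 11 of the 19 shared regions and 47 of all 78. The region from 23636303 to 23636675 had 3.89-fold and 4.90-fold in female 1 and 2, and 4.23-fold and 3.40-fold in male 1 and 2. The one from 23677446 to 23678002 had 5.0-fold and 4.07-fold for female 1 and 2, then 4.07-fold and 3.85-fold for male 1 and 2. The one from 23654840 to 23655291 had 5.45-fold and 3.83-fold for female 1 and 2, then 3.71-fold and 3.76-fold for male 1 and 2. In the last of these female 1 stood above 3 near-equal libraries. The remaining regions of these 8 were those from 23643139 to 23643804, from 23665546 to 23666770 and from 23667511 to 23668102. Their lowest values were 2.42 (male 2), 2.93 (male 2) and 2.76 (male 1). The region from 21903520 to 21904055 in the first block had 4.24-fold and 3.71-fold for female 1 and 2, then 3.67-fold and 4.73-fold for male 1 and 2.

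Heights went with the replicate number in several regions, at a share near that of the rest of chromosome 13. The 2 highest libraries had the same number in 52.6% of the 19 shared regions and in 47.2% of the 89 elsewhere. The region from 22132806 to 22133577, the 1 region of the second block in all 4 lists, had 6.20-fold in female 2 and 6.82-fold in male 2, against 3.45-fold in both female 1 and male 1. The highest peak of the cluster in female 2 (8.30-fold, rank 136 of its list) and in male 2 (7.25-fold, rank 117) fell in 1 region, from 23646824 to 23647345. That region had only 2.26-fold in female 1 (rank 15909) and no peak in male 1. The order was the reverse from 23775342 to 23776674, where female 1 had 5.81-fold and male 1 had 4.10-fold, against 3.50-fold in female 2 and 2.61-fold in male 2. This last region was picked after its values were seen.

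**Figure D3:**
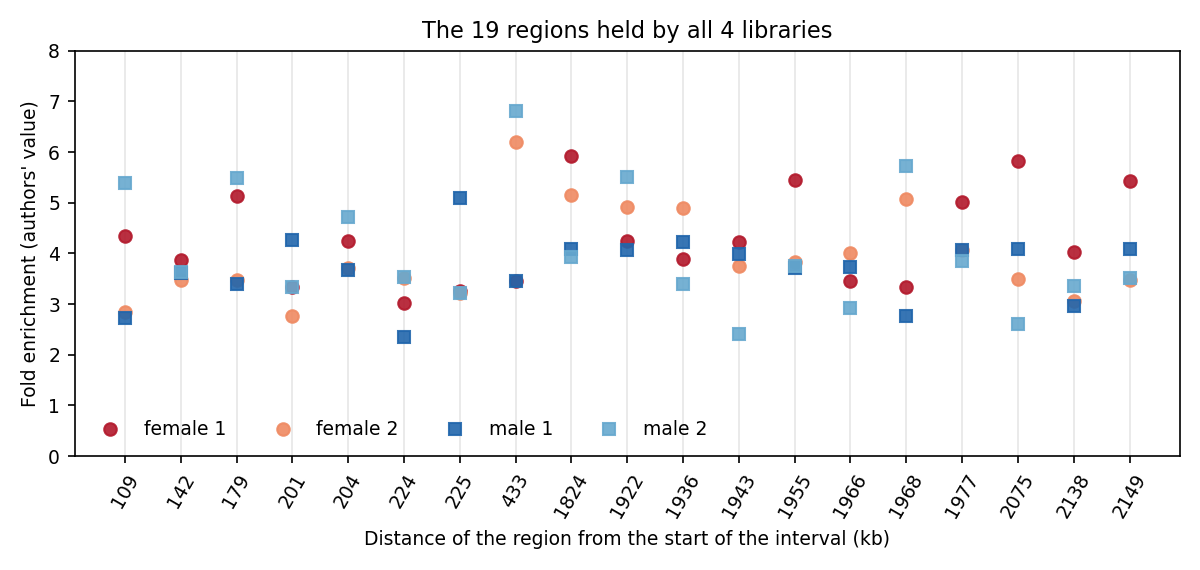
Fold enrichment (the authors' value) in each library for the 19 regions held by all 4, in order along the chromosome and named by distance from the start of the interval (kb). Circles are female and squares male; the region at 433 kb has both libraries of number 2 above 6-fold and both of number 1 at 3.45-fold.

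Over the 19 regions, the 2 highest libraries had the same number in 10, the same sex in 2 and neither in 7. Over the 89 such regions of the rest of chromosome 13, the counts were 42, 31 and 16. Correlations of log2 fold across the regions that a pair of lists shared were highest between the libraries of number 2, in the cluster and outside it. They are given without a test because regions are not replicates and libraries of a number share a code in their descriptions. In the cluster, Pearson's r was 0.40 for female 2 with male 2 (56 regions) and 0.29 for female 1 with male 1 (21 regions). It was -0.13 for the 2 female lists (58 regions) and -0.38 for the 2 male lists (20 regions). Over the rest of chromosome 13 these 4 pairs had 0.63, 0.50, 0.23 and 0.29. The pairs that share neither sex nor number had -0.23 (female 1 with male 2, 51 regions) and 0.07 (female 2 with male 1, 22 regions) in the cluster, and 0.26 and 0.35 elsewhere. Number, code and Sex tag split the libraries in the same way and cannot be told apart.

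Female 2 and male 2 shared their highest cluster peak, and the other 2 libraries had their own. The highest cluster peak of female 1 lay from 23523193 to 23523624, at 6.64-fold (rank 324), with 4.17-fold in female 2, 4.93-fold in male 2 and none in male 1. That of male 1 lay from 21924940 to 21926009, at 5.09-fold (rank 314), while the other 3 libraries were near-equal there, at 3.26-fold in female 1, 3.22-fold in both female 2 and male 2. The widest region, from 23852750 to 23854737 (1988 bp), was in both female lists and male 2, at 3.03-fold, 5.45-fold and 4.38-fold. The region from 21901148 to 21902732 (1585 bp) was in all 4 lists, at 3.34-fold in female 1, 2.77-fold in female 2, 4.27-fold in male 1 and 3.34-fold in male 2. Between them in width was the best-placed region named above (1639 bp).

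Peaks of the cluster were wide, with high −log10 q, and of no more than usual median height. Median width was 411 bp in female 1, 398.5 bp in female 2, 263 bp in male 1 and 354 bp in male 2, against 303, 308, 239 and 268 bp over the rest of chromosome 13 in the same lists. Median −log10 q was 6.97, 7.05, 5.62 and 7.07 in the cluster, against 5.42, 6.05, 4.54 and 5.64 elsewhere. Median fold enrichment was 3.60 and 3.82 for female 1 and 2, then 3.72 and 3.75 for male 1 and 2, just under the 3.73, 3.83, 3.83 and 3.90 of the rest. In each list the width and the q-value of the cluster's peaks were thus above those of the chromosome and the fold was not. The highest fold in the cluster was 6.64, 8.30, 5.09 and 7.25 in the 4 lists, while the rest of chromosome 13 reached 16.2, 15.3, 12.1 and 9.20. Among the strongest 10% of each list by fold were 8 cluster peaks of female 1 (11.3% of its cluster peaks), 7 of female 2 (9.46%), 1 of male 1 (4.17%) and 11 of male 2 (16.2%). The shares over the rest of chromosome 13 were 12.8%, 10.9%, 13.1% and 11.2%. The counts in the cluster are small, and those of female 1 and female 2 lay near this background.

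**Figure D4:**
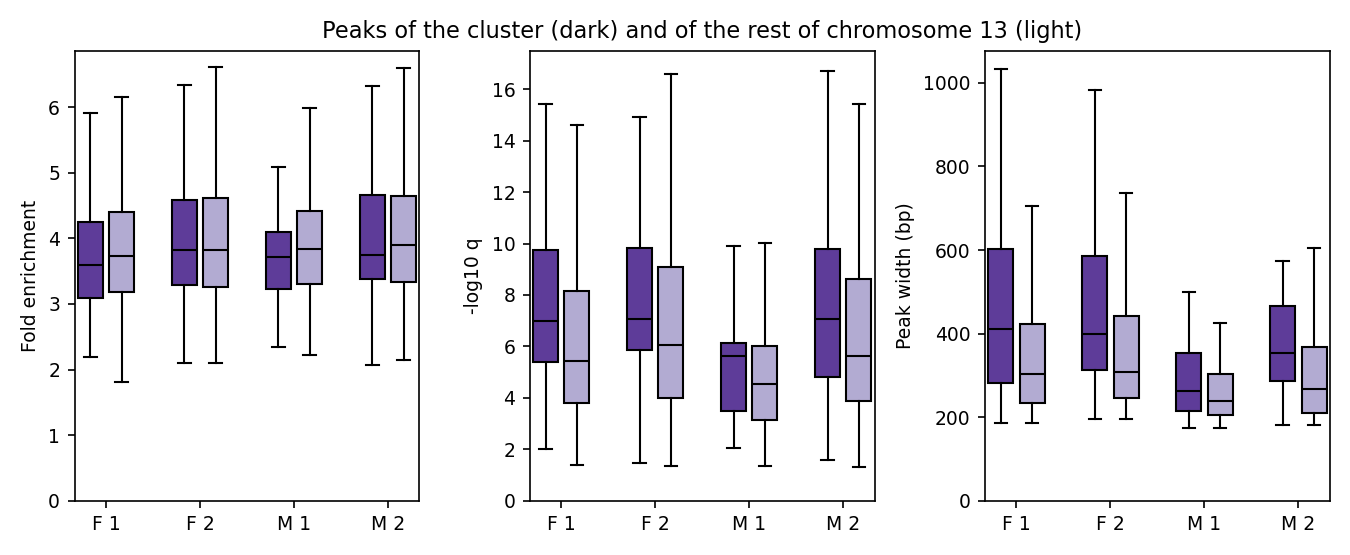
Fold enrichment, −log10 q and width (bp) of the peaks of each library in the cluster (dark boxes) and in the rest of chromosome 13 (light boxes); F and M are female and male, with the replicate number. Boxes show quartiles and medians, whiskers reach 1.5 box lengths at most, and points beyond are not drawn; cluster medians are above the others for −log10 q and width, and just under them for fold.

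Merged regions were wide as well, with a median of 548 bp against 323.5 bp, and 15 of 78 (19.2%) spanned 1 kb or more, against 2.07%. Several peaks of 1 library lay in the same region in 14 regions (17.9%), against 2.46%. Width went with recurrence, which the merging partly builds in, because a region spans all the peaks joined in it. Regions in all 4 lists had a median of 666 bp in the cluster and 654 bp elsewhere, and regions in 1 list had 269 and 246 bp. Regions in 3 lists had 605.5 bp in the cluster and 480.5 bp elsewhere.

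The comparison of the sexes asked whether the cluster was occupied alike in female and male tumours. Peaks in the cluster numbered 71 in female 1 and 74 in female 2, against 24 in male 1 and 68 in male 2. The means were 72.5 ± 2.1 (SD, n = 2) and 46.0 ± 31.1 (SD, n = 2). Both female lists had more peaks than both male lists, but male 2 was close to them and male 1 was far below. The log2 ratio of female to male was 0.84 (p = 0.33, two-sided exact permutation test; 0.5 after Benjamini-Hochberg adjustment over 3 tests). No split of 2 libraries against 2 can give a smaller p, so the design cannot reach 0.05. Within replicate numbers the log2 ratio was 1.56 in number 1 and 0.12 in number 2, and it was 0.09 without male 1, 1.59 without male 2 and -0.78 where the Sex tag set the groups. At equal list length by p-value it was -0.16 (exact permutation p = 1), with 28 and 26 peaks for females and 24 and 38 for males.

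Relative to chromosome 13, the cluster took a larger part of the male lists. It held 10.1% (7.94 to 12.5) of the chromosome's peaks in female 1 and 9.48% (7.51 to 11.7) in female 2, against 12% (7.84 to 17.3) in male 1 and 15.7% (12.4 to 19.4) in male 2, with exact intervals for counting error. The means were 9.77% ± 0.41 (SD, n = 2) and 13.8% ± 2.6 (SD, n = 2), and the groups did not overlap. The log2 ratio of female to male was -0.49 (exact permutation p = 0.33, adjusted 0.5), -0.25 in number 1 and -0.73 in number 2. At equal list length the groups overlapped, at 14.4% and 12.8% for female 1 and 2, then 12% and 19.5% for male 1 and 2. The height of cluster peaks relative to the rest of the chromosome, as log2 of the ratio of medians, was -0.05 and -0.0028 for female 1 and 2, then -0.05 and -0.06 for male 1 and 2. The female minus male difference was 0.03 (exact permutation p = 0.667, adjusted 0.667), within the spread of the libraries.

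Few regions separated the sexes by presence. Both female and neither male library held 6 of the 78 regions (7.69%), against a background of 12.2% over the rest of chromosome 13 and 11.1% over the series. Both male and neither female library held 0, against 0.197% and 0.0912%. For 78 regions, 0 allows a share of up to 3.85%, taking 3 counts as an approximate upper 95% limit. This limit is not an exact interval, and it treats regions as independent. At equal list length the counts were 0 for the female pair alone and 2 for the male pair alone. Whatever male 2 held, 37 regions (47.4%) were in both female lists and not in male 1, against 264 of 1016 (26%) over the rest of the chromosome. Besides the first and the last member, the female pair alone held a region from 23460858 to 23461357, at 4.22-fold in female 1 and 4.62-fold in female 2. It also held one from 23618280 to 23618686, at 5.03-fold and 3.55-fold, and one from 21802325 to 21802928, at 4.03-fold and 2.84-fold. The sixth, from 23712578 to 23712854, was the lowest-placed, at 3.39-fold and 2.09-fold, and is named to complete the count.

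Lists as deposited overlapped more in the cluster than outside it for each of the 6 pairs, where 1 bp of overlap was enough. Peaks of the cluster were wider and closer together than elsewhere, and how far this raised the shares was not tested. With an overlap of 50% of both peaks, female 1 and male 1 had 37.5% in the cluster and 47.2% elsewhere. At 1 bp, female 1 met female 2 at 90.1% (80.7 to 95.9) of its 71 peaks, and 85.1% of the 74 peaks of female 2 met one of female 1, against 59.8% and 53.7% over the rest of chromosome 13. Of the 68 peaks of male 2, 88.2% (78.1 to 94.8) overlapped female 2, and 79.7% of female 2 overlapped male 2, against 82.0% and 41.9% elsewhere. All 24 peaks of male 1 overlapped female 2 (100%, 85.8 to 100), and they met 31.1% of the peaks of female 2. Over the rest of the chromosome these shares were 65.9% and 16.1%. Of the same 24, 95.8% overlapped female 1 and 83.3% overlapped male 2, against 79.5% and 56.8% elsewhere. They met 29.6% and 27.9% of the peaks of those longer lists, against 21.6% and 26.5%, so for male 2 the shares were close. Male 2 overlapped female 1 by 83.8%, and female 1 overlapped male 2 by 80.3%, against 68.9% and 39.8% elsewhere.

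**Figure D5:**
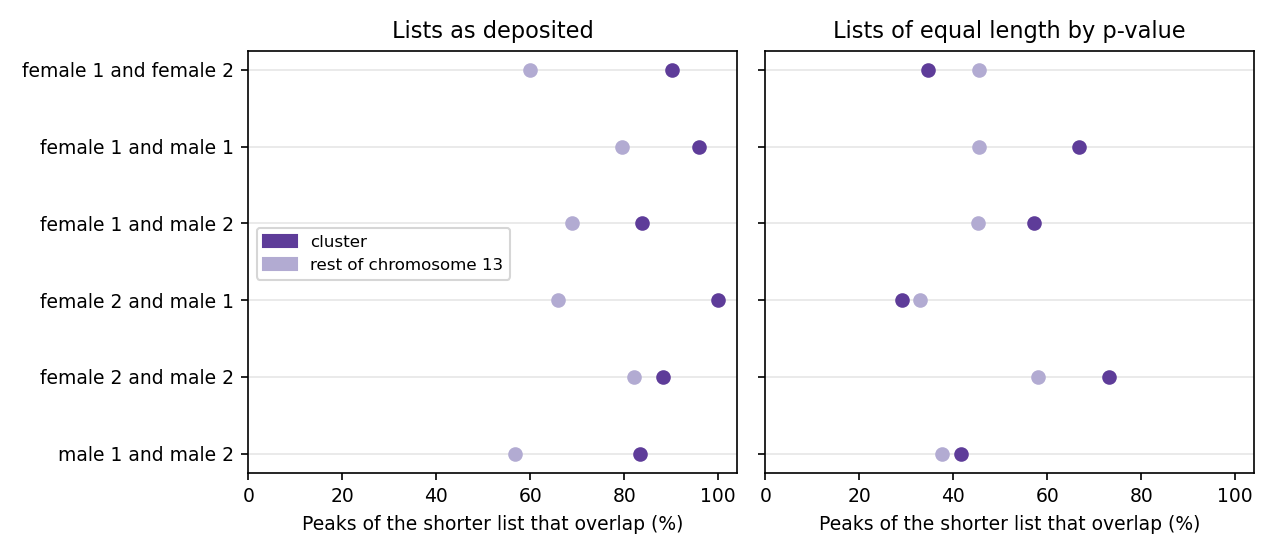
Peaks of the shorter list (%) that overlap the other list by at least 1 bp, for the 6 pairs of libraries, in the cluster (dark) and in the rest of chromosome 13 (light). With lists as deposited (left) the cluster is higher in all 6 pairs, and with lists of equal length by p-value (right) it is higher in 4 of 6. The cluster shares at right rest on 24 to 28 peaks each.

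At equal list length the order was mixed. Female 1 and female 2 overlapped by 34.6% in the cluster and 45.5% elsewhere, and female 2 and male 1 by 29.2% and 33.0%. The pairs of a number stayed higher in the cluster, at 66.7% against 45.5% for number 1 and 73.1% against 58.0% for number 2. So did female 1 and male 2, at 57.1% against 45.2%, and the male pair, at 41.7% against 37.6%. The cluster shares at equal length rest on 24 to 28 peaks each. The male pair and female 2 with male 1 were near their background. With lists as deposited, summits of overlapping peaks lay a median of 74.5 bp apart between the female lists in the cluster and 62.5 bp elsewhere. Distances were 85 against 49.5 bp for female 2 and male 2, and 88 against 47.5 bp for female 1 and male 2. For female 2 and male 1 they were 72.5 against 65 bp. For male 1 with male 2 and for female 1 with male 1 the order was the other way, at 52 against 65 bp and 53 against 61.5 bp.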

How the data were processed

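YAP1 ChIP-seq was done on flash-frozen tumours by a service company and sequenced on a NextSeq 500, per the labels' protocols. The submitters' processing notes name BWA, HOMER 4.11 and mm9 and give them no role. Not given in the sources used here are the peak caller, its threshold and control, and how reads that map to several places were treated. The authors deposited 1 narrowPeak list per library, which gives each peak a summit, a score, a −log10 p-value, a −log10 q-value and a fold enrichment (a ratio whose background is not described). All deposited −log10 q-values were at least 1.30. Ranks and medians were taken within a list, and folds of several lists are set side by side or correlated as a description only.

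Peaks overlapping by at least 1 bp were merged, and positions are 1-based on mm9. The merging step was checked on simulated data. The members, the interval and the lists were chosen with earlier results of these data known. Named regions follow a rule: the 10 in all 4 lists with the best worst rank by fold on chromosome 13, the highest of each library, the 3 widest, up to 5 each of the female and male pair alone, the first and last, and the nearest outside. Outside it, and chosen after values were seen, are the sixth of the female pair, the neighbours of the highest region of female 2, and the one from 23775342 to 23776674. Sexes were compared with an exact permutation test over libraries. Libraries of 1 replicate number share a code in their descriptions, which is where the pairing comes from; lists without counts allow no correlation of deviations. Summit distances, correlations of fold, counts of which libraries were highest, windows, spacing and the promoter search were added after seeing the data. Python 3.11.15, pandas 2.3.3, numpy 2.4.6, scipy 1.17.1 and matplotlib 3.10.9 were used.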

Additional observations from a re-analysis of the deposited data

How the results depend on the processing

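Peak numbers without a known depth limit every count here, and 2 libraries against 2 cannot pass 0.05. The log2 ratio of peak numbers in the cluster (0.84) was -0.16 with lists cut to equal length by p-value, and -0.78 where the Sex tag set the groups. Leaving out libraries gave 0.09 (without male 1) to 1.59 (without male 2). The log2 ratio of the cluster's share (-0.49) kept its sign in all alternatives. It was -0.17 at equal length and -0.15 with the Sex tag, and -0.68 (without male 1) to -0.30 (without male 2) with a library left out. The difference in relative height (0.03) changed sign at −log10 q of at least 5 (-0.051), with the Sex tag (-0.017), against the autosomes (-0.0026) and with −log10 p in place of fold (-0.0051). The replicate block, pairing by number, gave the same 3 values with exact sign-flip p of 0.5, 0.5 and 1. With 2 pairs no p under 0.5 is possible, and no call changed.

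Regions in all 4 lists (19) numbered 10 under the stricter q-value, 4 at equal length and 11 with an overlap of 50% of both peaks. Leaving out 1 library gave 19 to 50, the highest without male 1. The 6 regions of the female pair alone became 0 at equal length, and 8 to 37 when 1 library was dropped, the highest without male 2. Those of the male pair alone (0) became 2 at equal length and 0 to 4 when 1 library was dropped. All regions (78) became 121 with the 50% overlap and 76 to 78 with a library left out. Fewer peaks enter the stricter settings, and leaving out a library loosens the rule behind each count.

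Pairwise overlaps at equal length were 34.6% (female 1 and female 2), 66.7% (female 1 and male 1), 57.1% (female 1 and male 2), 29.2% (female 2 and male 1), 73.1% (female 2 and male 2) and 41.7% (male 1 and male 2). With the 50% overlap they were 62.0%, 37.5%, 51.5%, 58.3%, 69.1% and 50% in the same order, against 45.4%, 47.2%, 50.5%, 35.8%, 62.8% and 35.8% elsewhere on the chromosome, so female 1 with male 1 turned. At −log10 q of at least 5, female 1 and male 1 moved to 100% and the male pair to 57.1%, of 14 peaks each. Elsewhere on the chromosome these shares were 79.1% and 55.2%, so the male pair was near its background.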
